A study of Mus musculus with 4 samples.

Results

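Parvalbumin (Pvalb) interneurons of dissected mouse primary motor areas were taken as the nuclei that carried the transcripts of this interneuron class. The members were selected on measured UMIs (unique molecular identifiers, each counting 1 captured transcript). Barcodes needed 500 or more genes and a mitochondrial share below 5% to be kept as nuclei. A kept nucleus was GABAergic when Gad1 and Gad2, the enzymes that make GABA, together gave at least 2 UMIs and more than the excitatory genes Slc17a7 and Sv2b. It was a Pvalb nucleus when at least 3 of 7 marker genes (Btbd11, Tmem132c, Eya4, Cemip, Scn9a, Pvalb and 6330411D24Rik) were detected, Grin3a and Sst together stayed below Btbd11 and Tmem132c, Adarb2 gave at most 2 UMIs, and fewer than 2 of the striatal genes Rarb, Rgs9, Sh3rf2 and Drd2 were seen. This rule found 665 Pvalb nuclei among 27085 kept nuclei. The markers were read from these data, so their levels describe the choice and are no result.

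Pvalb interneurons are the fast-spiking inhibitory neurons of the cortex. Basket cells among them contact the cell bodies of pyramidal neurons and chandelier cells contact the axon initial segment, so both types control when pyramidal neurons fire. Their brief action potentials rest on Kv3 potassium channels, their release sites use synaptotagmin 2 as the calcium sensor, and parvalbumin itself binds calcium in the cytoplasm. High firing rates demand much mitochondrial energy, and the cells are wrapped in a perineuronal net.

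The series asked how sleep need and the kinase SIK3 bear on transcription in motor cortex. Nuclei from frozen, dissected primary motor areas of C57BL/6N mice were profiled by droplet single-nucleus RNA sequencing with a 3′ tag kit. The 4 groups were mice that slept ad libitum, mice deprived of sleep by gentle handling, and mice given AAV8 locally that drove FLAG-tagged SIK3 from the neuronal hSyn promoter, either wild-type (WT) or lacking exon 13 (Ex13del). SIK3 is a salt-inducible kinase that phosphorylates class IIa histone deacetylases and CRTC coactivators, and the series describes the mutant as gain-of-function. The ad lib mice had no sleep deprivation, and no group received an empty virus, so virus and kinase cannot be told apart in the comparison of WT SIK3 with ad lib sleep. The viral groups differ from the ad lib group in injection as well. Reads at 3′ ends cannot show whether exon 13 was absent.

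Each group was 1 library, so no difference between groups was tested and the spread between animals is unknown. The libraries held 5944 to 9438 barcodes and 43655557 to 54070503 UMIs, and any pair of libraries shared 9 to 16 barcodes. Levels are given as CPM, the usual depth-scaled count, from the UMIs of a gene summed over the Pvalb nuclei of a library, and a fold is the ratio of CPM in 2 libraries. Brackets hold 95% intervals, exact Poisson for levels, exact conditional for folds and Clopper-Pearson for shares, and they cover counting error only. The ad lib library gave 232 Pvalb nuclei (2153034 UMIs), sleep deprivation 108 (1645973), WT SIK3 187 (1922579) and Ex13del SIK3 138 (1632492). Pvalb nuclei from sleep-deprived mice were deeper, with a median of 14268 UMIs per nucleus against 8377.5 in ad lib sleep, 9637 in WT SIK3 and 11039.5 in Ex13del SIK3. Summed transcripts cannot separate fewer cells from less RNA per cell, and nuclei miss cytoplasmic RNA.

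Among cortical GABAergic nuclei the Pvalb class made up similar shares in the 4 libraries. It was 27.1% (24.2 to 30.2) of 855 nuclei in ad lib sleep and 22.4% (18.7 to 26.3) of 483 in sleep deprivation. It was 26.3% (23.1 to 29.7) of 711 in WT SIK3 and 25.2% (21.6 to 29.0) of 548 in Ex13del SIK3. The intervals of all 4 libraries overlapped, and the order of the shares depended on depth: with each nucleus thinned to 3000 UMIs they were 21.5%, 21.3%, 21.6% and 19.7% in the same order.

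The label of the class was checked against genes that the rule did not use. The nuclei held transcripts that define fast-spiking interneurons in all 4 libraries. Syt2, the calcium sensor of their release sites, stood at 171 CPM in ad lib sleep, 152 in sleep deprivation, 149.8 in WT SIK3 and 156 in Ex13del SIK3. These levels were 10.4, 9.60, 12.8 and 12.6 times those of the other cortical GABAergic nuclei of the same library. Kcnc2, which encodes the Kv3.2 channel, reached 3249, 2874, 3257 and 3302 CPM in the same order, 3.15 to 3.58 times the other GABAergic nuclei. Erbb4, the neuregulin receptor of interneurons, was among the most abundant transcripts at 7903 to 9288 CPM and 2.05 to 2.88 times the others. Lhx6, a transcription factor of interneurons from the medial ganglionic eminence, stood at 89.2, 112, 84.3 and 71.7 CPM. Nxph1, which somatostatin interneurons also express, was near parity with the other GABAergic nuclei at 0.916 to 1.27 times their level. Because the nuclei were sorted with co-varying genes, these ratios describe the class and were not tested.

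The 15 genes outside the rule that stood highest over the other GABAergic nuclei in their weakest library formed a compact portrait of the cell. They were Syt2, Slit2, Mypn, Myo5b, Gm28501, Sox5os4, Myo1e, Kcnip2, Nek7, Tmem108, Tmem132cos, Gm13629, Plcxd3, Cntnap4 and Gm45904. Slit2, a secreted axon guidance cue, stood at 619.6 CPM in ad lib sleep, 448 in sleep deprivation, 656 in WT SIK3 and 608 in Ex13del SIK3, 8.92 to 11.8 times the others. Kcnip2, a calcium-binding subunit of Kv4 channels, stood at 112, 117, 113 and 107 CPM and was 4.83 to 9.45 times as high. Cntnap4, a neurexin-like protein of interneuron synapses, stood at 683, 563, 677 and 764 CPM and was 4.21 to 5.37 times as high. The myosin genes Myo5b (134 to 142 CPM) and Myo1e (119 to 162 CPM) and the sarcomere protein gene Mypn (69.9 to 85.0 CPM) belonged to the same set. Gm28501, Sox5os4, Tmem132cos, Gm13629 and Gm45904 are unstudied or antisense-type transcripts, and without a stated use of strand their reads cannot be told apart from those of overlapping genes. By its name Tmem132cos lies opposite Tmem132c, a gene of the rule, so its place in this set may follow from the choice of nuclei.

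**Figure D1:**
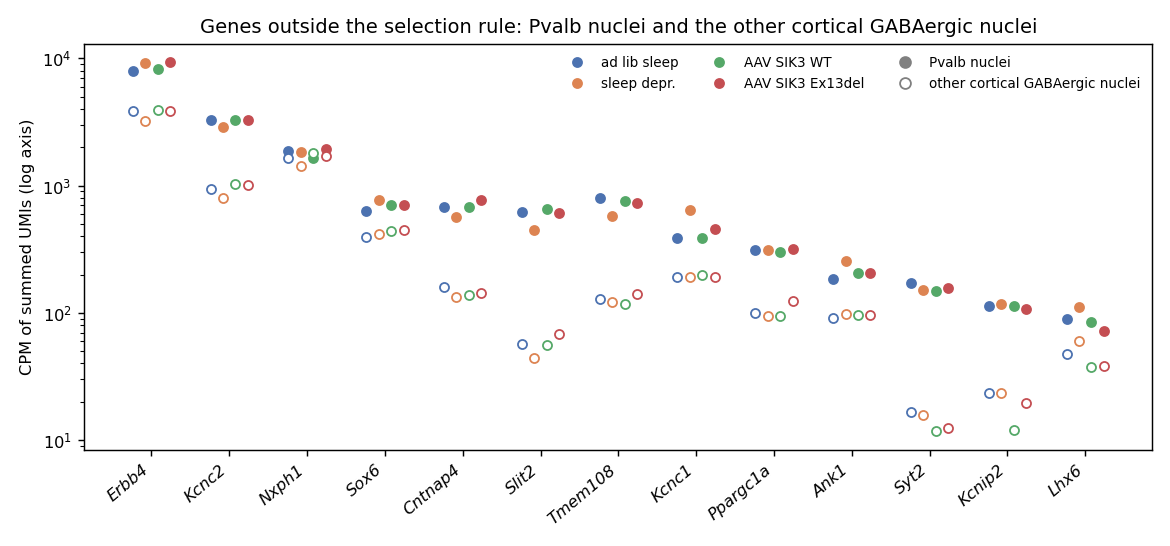
Level of 13 genes that were not used to choose the nuclei, in CPM of summed UMIs on a log axis, for the Pvalb nuclei (filled) and the other cortical GABAergic nuclei (open) of each of the 4 libraries. Syt2 sits near 150 to 171 CPM in every Pvalb group and about 10-fold lower in the open points, while Nxph1 overlaps between filled and open points.

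Transcripts of other cell types were seen as well. The summed level of a set of excitatory neuron genes was 679.5 CPM in ad lib sleep, 939 in sleep deprivation, 837 in WT SIK3 and 694 in Ex13del SIK3, and each of its 12 genes was seen in the ad lib nuclei. It reached 913 CPM in the other cortical GABAergic nuclei of the ad lib library and 2454 CPM in excitatory nuclei. Genes of striatal projection neurons summed to 709 CPM in ad lib sleep, 960 in sleep deprivation, 741 in WT SIK3 and 727 in Ex13del SIK3. In the other cortical GABAergic nuclei they summed to 674, 851, 748 and 692 CPM in the same order. Astrocyte genes summed to 529 to 638 CPM, oligodendrocyte genes to 205 to 360.3 CPM and microglial genes to 139 to 225 CPM. Sst-type genes summed to 86.3 to 99.3 CPM, against 772 to 793 CPM in the other cortical GABAergic nuclei. The sleep deprivation library thus held the most excitatory and striatal transcripts. The part these play in the differences below was not tested beyond the recounts given beside them. None of those recounts left out nuclei by striatal genes.

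The choice of threshold touched few nuclei. Just outside it lay 22 nuclei with 2 of the 7 markers, with a median of 4004 UMIs, Syt2 at 90.4 CPM and Kcnc2 at 1726 CPM. Just inside lay 44 nuclei with 3 markers, with a median of 6681 UMIs, Syt2 at 53.7 CPM and Kcnc2 at 2512 CPM. Of the remaining members 84 had 4 markers, 157 had 5, 226 had 6 and 154 had all 7.

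Pvalb nuclei also differed among themselves. With every nucleus thinned to 5000 UMIs, and shallower ones left out (205, 103, 169 and 129 nuclei stayed), the genes whose counts varied most from nucleus to nucleus beside their mean included Malat1, Kcnip4, Galntl6, Il1rapl2, Cntn5, Erbb4, Lrrtm4 and Sgcz, which were chosen after their values were seen. The Fano factor, the variance of the thinned counts over their mean, was 29.6, 17.5, 25.1 and 33.4 for Kcnip4 in ad lib sleep, sleep deprivation, WT SIK3 and Ex13del SIK3. For Il1rapl2 it was 15.8, 13.8, 22.8 and 15.2, against a median over 1503 genes of 1.18 to 1.23. Il1rapl2, an interleukin-1 receptor accessory protein-like gene of synapses, was spread unevenly: the median thinned count was 0 in ad lib sleep, WT SIK3 and Ex13del SIK3, while the upper quartiles were 6, 9 and 11. In sleep deprivation the median was 4 and the upper quartile 17. Most genes of chandelier cells were sparse. Of the 8 on the list, Trps1 was left out of the count. It was seen in 78.4% of nuclei in ad lib sleep, 75.9% in sleep deprivation, 78.1% in WT SIK3 and 80.4% in Ex13del SIK3. At least 2 of the other 7 genes were seen in 4, 10, 7 and 6 nuclei, in the same order. That is 1.72% (0.472 to 4.36), 9.26% (4.53 to 16.4), 3.74% (1.52 to 7.56) and 4.35% (1.61 to 9.22) of the nuclei. The share was highest in sleep deprivation, where nuclei were deepest, and was not compared at equal depth.

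Pvalb itself was a modest transcript in nuclei. It stood at 92.9 CPM (80.5 to 107) in ad lib sleep, 157 (139 to 178) in sleep deprivation, 110 (95.4 to 126) in WT SIK3 and 94.9 (80.6 to 111) in Ex13del SIK3. Over all nuclei the sleep deprivation level was the highest, 1.69 (1.40 to 2.05) times the ad lib level, and its interval overlapped none of the others. Among nuclei under 10000 UMIs the sleep deprivation level was 156 CPM (105 to 223) and that of WT SIK3 148 (121 to 181), with wide overlap, while ad lib sleep gave 100.3 and Ex13del SIK3 107. Among deeper nuclei the levels were 86.3, 157, 89.2 and 90.8 CPM in ad lib sleep, sleep deprivation, WT SIK3 and Ex13del SIK3. Much of this lay in 1 nucleus. The deepest Pvalb nucleus of that library had 58951 UMIs, against 35395 for the next, and held 57 Pvalb UMIs, 22% of the library's Pvalb count. Without the deepest nucleus of each library the ad lib and sleep deprivation levels were 93.9 and 127 CPM, a ratio of 1.36 (1.11 to 1.66). That 127 CPM lay next to the upper end of the WT SIK3 interval over all nuclei, 126 CPM, so the separation from WT SIK3 rested on that nucleus. With each nucleus thinned to 3000 UMIs and shallower ones left out (229, 106, 185 and 138 nuclei stayed), a Pvalb UMI was found in 21.4% (16.3 to 27.3) of ad lib nuclei, 35.8% (26.8 to 45.7) of sleep deprivation nuclei, 23.2% of WT SIK3 nuclei and 21.7% of Ex13del SIK3 nuclei; unthinned shares were 45.7%, 74.1%, 56.1% and 53.6%. Pvalb maps to chromosome 15, 78191114 to 78206400, on the minus strand (mm10, GENCODE vM21). As a gene of the rule, it is given as a description.

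**Figure D2:**
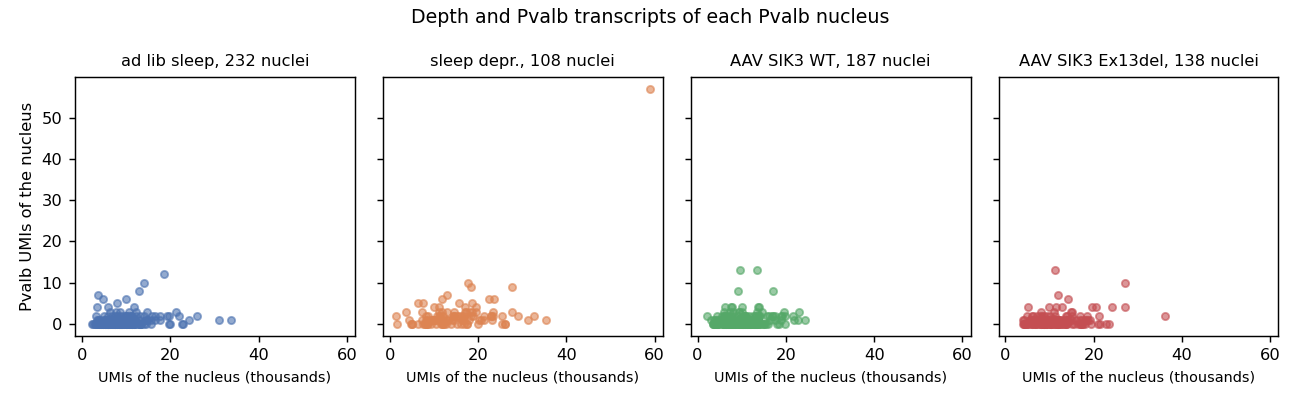
Pvalb UMIs against total UMIs (axis in units of 1000) for each Pvalb nucleus, 1 panel per library. The sleep deprivation panel lies further to the right than the others and holds 1 nucleus at 58951 UMIs and 57 Pvalb UMIs, far from the rest.

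The first comparison set sleep deprivation against ad lib sleep. Pvalb nuclei of sleep-deprived mice held more transcript of the Kv3 channel gene Kcnc1, of the adhesion genes Cntnap5c and Il1rapl2, and of cytosolic heat shock genes. They held less of Kcnip4, Brinp3 and several long noncoding transcripts. Of 7281 genes ranked (20 CPM or more on average in the pair of libraries, and 50 or more UMIs), 220 were at least 1.5-fold higher on the log2(CPM + 1) scale (3.02%) and 333 at least 1.5-fold lower (4.57%). That is 7.6% in either direction, a count of size and not of tested change. The median log2 ratio of all ranked genes was 0.00, and 50.6% lay above 0.

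Among potassium channels, Kcnc1 encodes Kv3.1, a channel that gives these cells their brief spikes. Kcnc1 stood at 388 CPM (362 to 416) in ad lib sleep and 643 (605 to 683) in sleep deprivation, with 390.1 in WT SIK3 and 453 in Ex13del SIK3, a ratio of sleep deprivation to ad lib sleep of 1.66 (1.51 to 1.82). The sleep deprivation library stood apart from the other 3. It did so at both depths: among nuclei under 10000 UMIs the levels were 354 in ad lib sleep and 683 in sleep deprivation, and among deeper nuclei 419 and 638. In thinned nuclei Kcnc1 was detected in 65.5% (59.0 to 71.6) of ad lib, 85.8% (77.7 to 91.9) of sleep deprivation, 62.7% of WT SIK3 and 73.2% of Ex13del SIK3 nuclei. Unthinned, these shares were 89.7%, 100%, 87.2% and 94.2%. The same ratio was 1.04 (0.856 to 1.26) in Sst-like nuclei, 0.999 (0.868 to 1.15) in Adarb2-rich interneurons and 0.978 (0.919 to 1.04) in excitatory nuclei, where Kcnc1 was at 57.6 and 56.3 CPM. The difference between classes was not tested. Kcnc1 maps to chromosome 7, 46396497 to 46438704, plus strand.

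Kcnc2, the most abundant Kv3 gene of the class, was lower in sleep deprivation at a ratio of 0.885 (0.852 to 0.918), opposite in direction to Kcnc1. Kcnab3, an auxiliary Kv1 subunit, stood at 21.4, 37.7, 29.1 and 25.1 CPM, a ratio of 1.76 (1.18 to 2.64). Kcnip4, a Kv4-binding protein, stood at 6553, 4694, 6779 and 6589.9 CPM, a ratio of 0.716 (0.697 to 0.737), and was also lower in Sst-like (0.589) and excitatory nuclei (0.774). Over the list of potassium channels, 18 of 29 ranked genes (of 33) lay above 0, with a median log2 ratio of 0.12, 3 were at least 1.5-fold higher and 1 as much lower. Their summed level went the other way, from 19950 CPM in ad lib sleep to 18221 in sleep deprivation, a ratio of 0.913 (0.900 to 0.927), with Kcnip4 and Kcnc2 among the abundant members that were lower. Among sodium, calcium and HCN channels 12 of 23 ranked genes lay above 0 with a median of 0.02, and 3 were at least 1.5-fold lower, among them Cacna1e at 85.9, 51.0, 51.5 and 54.5 CPM. For Cacna1e it was the ad lib library that stood above the other 3.

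Calcium handling genes leaned upward, with 12 of 14 ranked genes of the list (21 genes) above 0 and a median of 0.18. Calb1, the buffer calbindin, was the 1 gene past 1.5-fold. It stood at 20 CPM in ad lib sleep, 38.3 in sleep deprivation, 22.4 in WT SIK3 and 19.0 in Ex13del SIK3, a ratio of 1.92 (1.28 to 2.89) on few counts. Abat, which breaks GABA down, stood at 107, 165, 141 and 148 CPM, a ratio of 1.54 (1.29 to 1.85). For Abat the ad lib library was the lowest of the 4. Gad1 was near level, at 348, 352, 373 and 329 CPM, and was used to choose the nuclei. Of the GABA handling list 6 of 9 ranked genes lay above 0 with a median of 0.20, which was -0.09 after thinning.

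The gene of highest ratio was not on the synaptic adhesion list. Cntnap5c, a contactin-associated protein, stood at 445 CPM (418 to 475) in ad lib sleep, 1007 (959 to 1056) in sleep deprivation, 574 in WT SIK3 and 627 in Ex13del SIK3, a ratio of 2.26 (2.09 to 2.45). No gene averaging 50 CPM or more had a higher ratio. The excess lay in the deeper nuclei: under 10000 UMIs the levels were 431 and 500.2 CPM, and above it 459 and 1074 CPM. The log2 ratio was 1.18 over all nuclei and 0.59 without nuclei that held an excitatory UMI. In Adarb2-rich nuclei Cntnap5c was lower in sleep deprivation, at a ratio of 0.643 (0.555 to 0.743), and in Sst-like nuclei the ratio was 1.21 (1.02 to 1.44). Il1rapl2 stood at 989, 1831, 1215 and 1281 CPM, a ratio of 1.85 (1.75 to 1.96). It was higher among nuclei under 10000 UMIs (974 against 1646 CPM) as among deeper ones (1002 against 1855 CPM). Its ratio was 1.67 in Sst-like and 0.551 in Adarb2-rich nuclei. Among the shallow nuclei WT SIK3 also stood high, at 1589.9 CPM.

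Over the adhesion and scaffold list 24 of 39 ranked genes (of 42) lay above 0 with a median of 0.04. Il1rapl2 is on this list and Cntnap5c is not, so Il1rapl2 and the members below stood out singly. Shank1, a scaffold of excitatory synapses, stood at 131, 210.2, 177 and 142 CPM, a ratio of 1.60 (1.37 to 1.88), and was higher in excitatory nuclei by a like ratio (1.58). Lrrtm1, a neurexin ligand, stood at 80.4, 48.0, 88.9 and 77.8 CPM, a ratio of 0.597. The sleep deprivation library was the highest for Shank1 and the lowest for Lrrtm1. Presynaptic release genes had 23 of 30 ranked members (of 33) above 0 with a median of 0.09. Rab3a, a vesicle GTPase, stood at 72.5, 111, 72.8 and 84.5 CPM, a ratio of 1.53, with sleep deprivation the highest.

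Receptor genes were mixed. Of the glutamate receptor list 16 of 27 ranked genes (of 34) lay above 0 with a median of 0.08. Grin2d, an NMDA subunit of interneurons, stood at 25.5, 48.0, 30.2 and 36.1 CPM, a ratio of 1.88 (1.31 to 2.70). Cacng2, the AMPA receptor partner stargazin, stood at 183, 292, 209 and 217 CPM, a ratio of 1.60 (1.39 to 1.83). For both genes the sleep deprivation library was the highest of the 4. GABA-A receptor genes had 5 of 15 ranked members above 0 with a median of -0.06, and none was past 1.5-fold. Among neuromodulator receptors, with 5 of 13 ranked genes (of 48) above 0, Chrm2, the M2 muscarinic receptor, stood at 165, 93.0, 114 and 148 CPM, a ratio of 0.564 (0.463 to 0.683). Its log2 ratio was -0.82, and -0.26 after thinning. In Sst-like nuclei Chrm2 was higher in sleep deprivation, at a ratio of 1.53 (1.22 to 1.91).

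**Figure D3:**
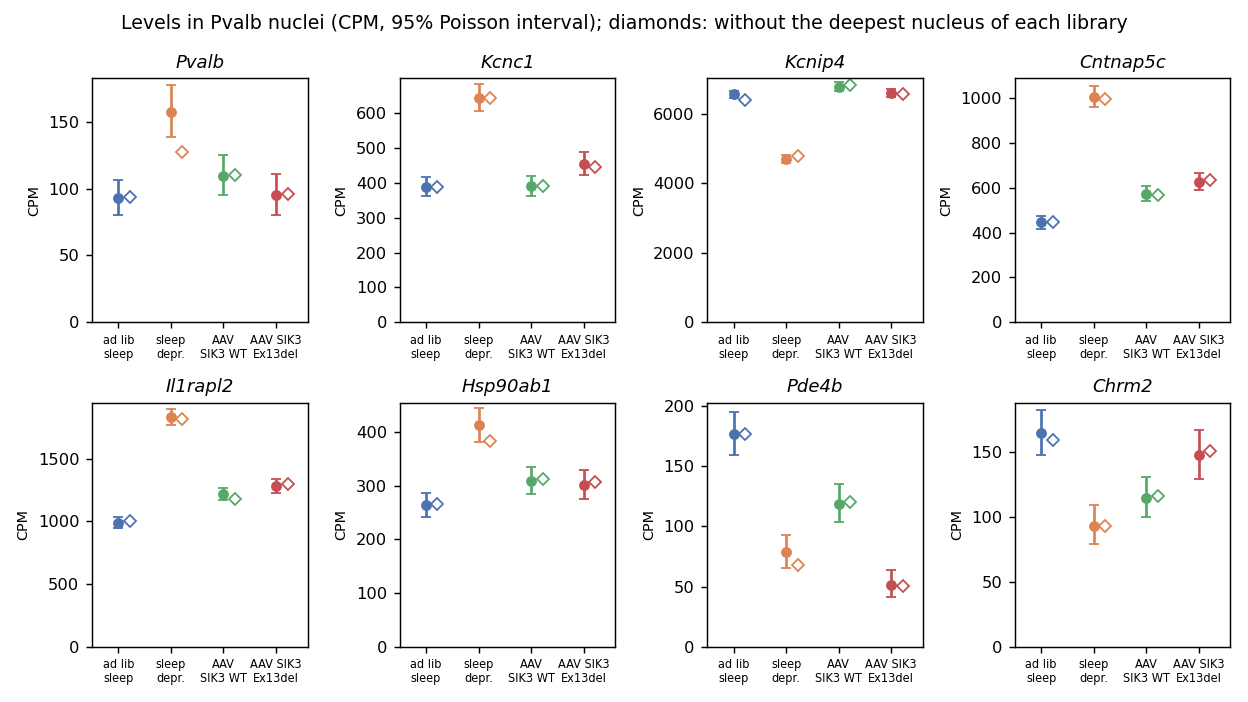
Level of 8 genes in the Pvalb nuclei of each library, in CPM with exact Poisson 95% intervals; diamonds give the level without the deepest nucleus. For Kcnc1 the sleep deprivation point (643 CPM) lies above the other 3, while for Pvalb the diamond of that library (127 CPM) falls well below its point (157 CPM).

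The other genes of largest ratio came from several systems. Higher in sleep deprivation were Nefl, Col25a1, Mtss2, Thsd4, Tle5, Cend1, Cdh4, Ttyh1 and Thsd7a, beside Cntnap5c. Nefl, the light neurofilament chain, stood at 39.0, 84.4, 57.7 and 43.5 CPM, a ratio of 2.16 (1.64 to 2.87). It was also higher in excitatory nuclei (1.79) and Sst-like nuclei (1.74). Thsd7a, a thrombospondin-domain protein, stood at 277, 516, 359 and 454 CPM, a ratio of 1.86 (1.68 to 2.07), and was lower in Adarb2-rich nuclei (0.655). The others had ratios of 1.88 to 2.02, and the ad lib library was the lowest of the 4 for each of these genes.

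The lowest ratios belonged to Gm28376, 4930470O06Rik, Gm20754, Olfm3, Pde4b, Zfp697, Brinp3, Hace1, Synpr and Gm32647. Gm28376 stood at 102, 38.3, 77.5 and 66.2 CPM, a ratio of 0.375 (0.278 to 0.498). Brinp3 stood at 207, 93.6, 178 and 143 CPM, a ratio of 0.453 (0.374 to 0.545), and was also lower in Sst-like (0.721) and excitatory nuclei (0.775). For both genes sleep deprivation was the lowest of the 4 libraries. Synpr, which encodes the vesicle protein synaptoporin, stood at 71.1, 34.0, 66.1 and 45.3 CPM, a ratio of 0.479. Pde4b, a cAMP phosphodiesterase, stood at 176, 78.4, 119 and 51.5 CPM, a ratio of 0.444 (0.361 to 0.544), although its level was higher in sleep deprivation in Adarb2-rich (1.82), Sst-like (1.42) and excitatory nuclei (1.24). Its log2 ratio of -1.16 was -0.19 without the nuclei marked for a high Scrublet doublet score. These were 16 of the ad lib and 1 of the sleep deprivation nuclei. Excitatory nuclei held 690 CPM of Pde4b in ad lib sleep.

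Cytosolic heat shock genes stood higher in sleep deprivation as a list. Of 25 genes 19 were ranked and 17 of these lay above 0, with a median log2 ratio of 0.34. 3 were at least 1.5-fold higher and none as much lower. Their summed level was 1658 CPM in ad lib sleep, 2155 in sleep deprivation, 1609 in WT SIK3 and 1648 in Ex13del SIK3. The ratio of the sums was 1.30 (1.24 to 1.36), and 1.21 without the deepest nucleus of each library. The sums were 1796 and 2266 CPM among nuclei under 10000 UMIs, and 1534 and 2140.3 CPM among deeper ones. Thinned to 3000 UMIs per nucleus the list's median was 0.15. In other classes the median was 0.20 in Sst-like, 0.17 in Adarb2-rich, 0.21 in excitatory, 0.33 in astrocyte-like and 0.56 in oligodendrocyte-like nuclei, so the pattern was not limited to Pvalb nuclei.

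Hsp90ab1, the constitutive HSP90, stood at 263, 413, 309 and 301 CPM, a ratio of 1.57 (1.40 to 1.75), and 1.45 (1.29 to 1.63) without the deepest nucleus. Hspa8, the constitutive HSP70, stood at 221, 315, 201 and 199 CPM, a ratio of 1.43 (1.26 to 1.62). Hsph1, an HSP110 exchange factor, stood at 36.7, 58.9, 38.0 and 49.0 CPM, a ratio of 1.61 (1.18 to 2.19). Over all nuclei the sleep deprivation library was the highest for each of these. Among nuclei under 10000 UMIs Hsp90ab1 was at 307, 401, 354 and 410 CPM (350 to 477 in Ex13del, 317 to 501 in sleep deprivation), so there Ex13del SIK3 was as high, and among deeper nuclei it was at 225, 414, 285 and 265 CPM. Fkbp4, an HSP90 co-chaperone of steroid receptors, stood at 28.3, 43.1, 28.6 and 30.6 CPM, a ratio of 1.52 (1.07 to 2.18). Chordc1, another HSP90 partner, stood at 42.3, 60.8, 41.6 and 43.5 CPM, a ratio of 1.44 (1.07 to 1.93). Hspa4l, an HSP110 relative, was level at 131, 134, 104 and 130.5 CPM, a ratio of 1.02 (0.853 to 1.22).

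Promoters of 4 of these genes are shown because heat shock genes are classically driven by heat shock factor, which binds inverted nGAAn repeats. Each runs 5′ to 3′ on the gene's strand from 250 bases before to 50 after the start of transcription (RefSeq, GRCm38.p6), and capitals mark GAANNTTC, a palindrome and so the same on both strands. Hsph1 is at chr5:149636266-149636565 on the minus strand, Fkbp4 at chr6:128438607-128438906 minus, Chordc1 at chr9:18292017-18292316 plus and Hspa4l at chr3:40745363-40745662 plus.
Hsph1: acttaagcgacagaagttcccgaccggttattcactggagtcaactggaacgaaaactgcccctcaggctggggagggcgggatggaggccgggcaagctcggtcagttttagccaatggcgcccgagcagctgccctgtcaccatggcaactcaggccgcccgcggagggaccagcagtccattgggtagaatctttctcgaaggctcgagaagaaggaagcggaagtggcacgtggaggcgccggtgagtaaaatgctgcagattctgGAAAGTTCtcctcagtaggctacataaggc
Fkbp4: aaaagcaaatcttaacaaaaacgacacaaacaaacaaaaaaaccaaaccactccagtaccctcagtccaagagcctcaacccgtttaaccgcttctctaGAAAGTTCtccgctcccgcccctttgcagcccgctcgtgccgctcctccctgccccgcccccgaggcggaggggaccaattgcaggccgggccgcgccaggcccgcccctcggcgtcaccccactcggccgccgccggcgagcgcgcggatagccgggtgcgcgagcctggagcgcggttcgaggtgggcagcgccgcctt
Chordc1: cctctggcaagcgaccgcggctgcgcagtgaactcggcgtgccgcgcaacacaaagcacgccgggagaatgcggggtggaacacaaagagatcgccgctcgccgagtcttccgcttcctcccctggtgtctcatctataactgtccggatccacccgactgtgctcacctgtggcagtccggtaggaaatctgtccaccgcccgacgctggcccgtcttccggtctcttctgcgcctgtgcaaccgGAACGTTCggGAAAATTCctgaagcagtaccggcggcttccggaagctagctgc
Hspa4l: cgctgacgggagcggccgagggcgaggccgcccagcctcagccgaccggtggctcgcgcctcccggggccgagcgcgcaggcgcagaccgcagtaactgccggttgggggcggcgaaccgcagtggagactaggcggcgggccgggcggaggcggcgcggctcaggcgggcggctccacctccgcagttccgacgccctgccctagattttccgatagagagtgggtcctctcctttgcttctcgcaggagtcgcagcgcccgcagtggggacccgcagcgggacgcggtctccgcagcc
Hsph1 has 2 annotated promoters, and the one shown was picked by its number of matches. It held the letters once, starting at +21. Fkbp4 held them once, starting at -151. Chordc1 held them at -4 and at +7. Hspa4l did not hold them in this window. They occurred in 2582 of 32851 promoters of this length (7.86%) and in 13 of the 21 heat shock genes in the table, against 2442 of 27025 genes overall. A gene was counted when any of its promoters held them. Only this arrangement, in which the inverted repeats face each other, was searched. Repeats facing away from each other were neither marked nor counted. The Hsph1 sequence shown holds that other arrangement before the start of transcription, and the Chordc1 sequence holds it as well. The positions and counts given are therefore not all inverted repeats. A match is a description of letters and shows no binding. Hsp90ab1 and Hspa8 are named only.

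Energy genes depended on the nuclei counted. Of 48 nuclear-encoded oxidative phosphorylation genes 47 were ranked and 38 lay above 0, with a median of 0.21. 4 were at least 1.5-fold higher, among them Sdhb and Ndufa8 at ratios of 1.60 and 1.56. The summed level was 4165, 4704, 4141 and 4079 CPM, a ratio of 1.13 that became 1.04 without the deepest nuclei. For the 13 mitochondrially encoded transcripts the median was 0.32 with 10 above 0, but it was 0.14 without the deepest nucleus of each library and -0.21 without nuclei holding an excitatory UMI. Their summed level was 4819, 5128, 4684 and 4553 CPM, a ratio of 1.06 (1.03 to 1.10) that turned to 0.970 without the deepest nuclei. Among nuclei under 10000 UMIs the sum was lower in sleep deprivation, 4772 against 5470.0 CPM, and among deeper nuclei it was higher, 5175 against 4235 CPM. Mitochondrial RNA in a nuclear preparation is carried over from cytoplasm. Ppargc1a, a regulator of mitochondrial genes that is high in Pvalb cells, was flat at 312, 311, 303 and 319 CPM.

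Stress and activity lists differed from one another. 1 of 23 rapid immediate early genes was ranked, and the list summed to 179, 182, 195 and 184 CPM. Arc, an activity-induced synaptic gene, gave 3 UMIs in ad lib sleep and 17 in sleep deprivation, 1.39 and 10.3 CPM, a ratio of 7.41 (2.14 to 39.5) on few counts. Delayed activity genes had a median of 0.11 with all nuclei and -0.14 without the deepest ones. The 6 ranked glucocorticoid response genes (of 22) all lay above 0, with a median of 0.28. That list summed to 699, 871, 826 and 788 CPM, a ratio of 1.25 (1.16 to 1.34). Zbtb16, a zinc finger gene of that list, stood at 85.0, 143, 116 and 127 CPM, a ratio of 1.68 (1.38 to 2.05), so the ad lib library was the lowest. Cholesterol synthesis genes summed to 370.2, 369, 369.8 and 338 CPM, a ratio of 0.998 (0.896 to 1.11) and a median log2 ratio of -0.01 over 6 ranked genes. The same median was -0.38 in Sst-like, -0.39 in Adarb2-rich and -0.30 in excitatory nuclei, over 9 or 10 ranked genes, and this difference between classes was not tested. Core clock genes had 10 of 12 ranked members above 0 with a median of 0.12. Interferon genes, none of them ranked, summed to 71.1 to 88.2 CPM. Perineuronal net genes had 4 of 9 ranked members above 0 with a median of -0.10, and 0.22 after thinning.

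**Figure D4:**
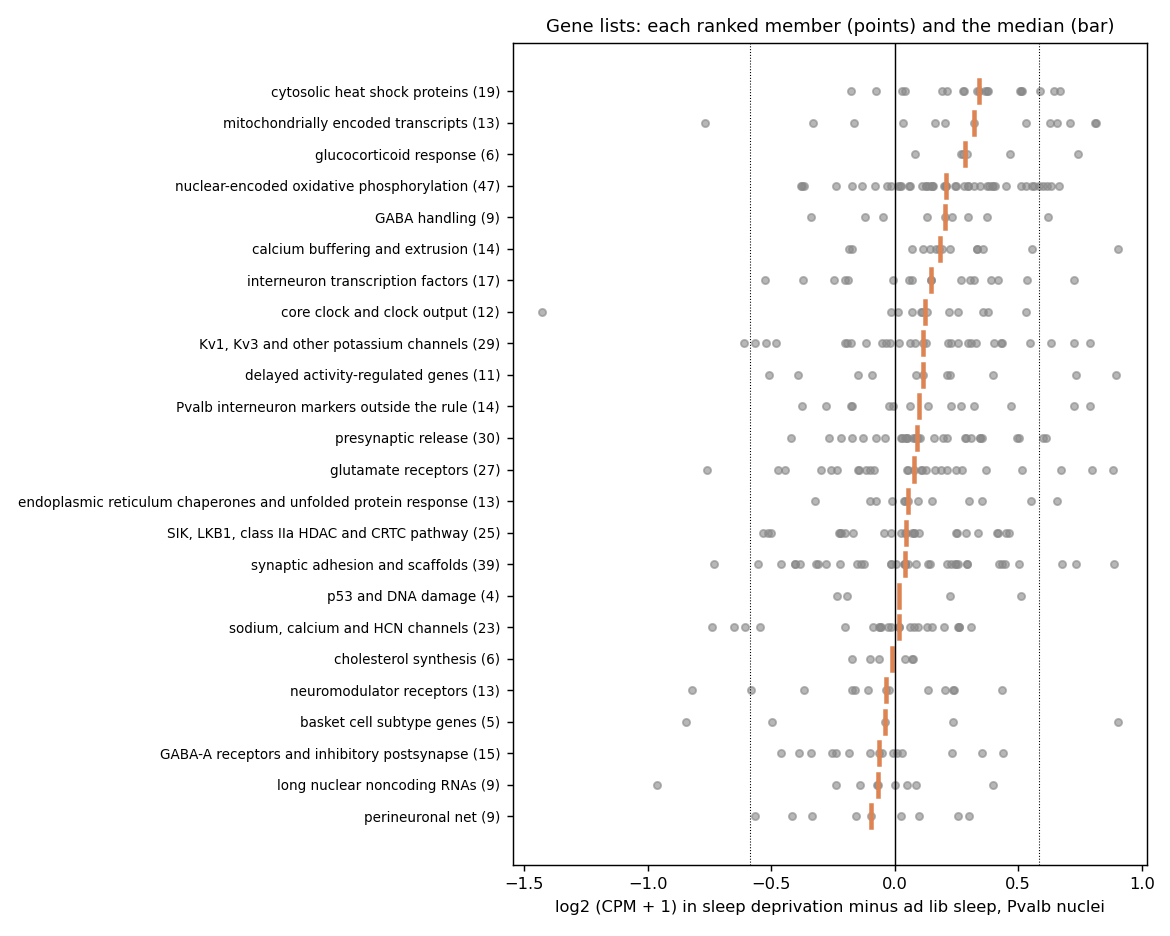
Log2 ratio of sleep deprivation to ad lib sleep on the log2(CPM + 1) scale for each ranked gene of each gene list in Pvalb nuclei (points), with the list's median (bar) and lines at 1.5-fold. The heat shock list has the highest median of the lists drawn at 0.34, while most lists centre near 0, as did all ranked genes.

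The viral comparisons began with the vector itself. A vector feature was counted beside the mouse genes. Its name points to WPRE and polyadenylation sequence, but its extent, its strand and whether both viruses carry it alike are not given in the sources used here, so its levels in the viral libraries are given side by side. It gave 0 UMIs in the Pvalb nuclei of both libraries without virus, where 3 counts would be 1.39 CPM in ad lib sleep and 1.82 CPM in sleep deprivation. It gave 231 UMIs in WT SIK3, 120.2 CPM (105 to 137), and 73 in Ex13del SIK3, 44.7 CPM (35.1 to 56.2). At least 1 vector UMI was found in 46 of 187 WT SIK3 nuclei, 24.6% (18.6 to 31.4), and in 40 of 138 Ex13del SIK3 nuclei, 29.0% (21.6 to 37.3). The top nucleus held 50 of the WT UMIs and 14 of the Ex13del UMIs. In astrocyte-like nuclei, where the neuronal promoter should be silent, 16.8% and 18.7% also held a vector UMI at median depths of 2928.5 and 2859 UMIs. These nuclei were shallower, and a single vector UMI was not read as the mark of a transduced cell. At least 3 vector UMIs were found in 6.42% of WT and 3.62% of Ex13del Pvalb nuclei, against 0.714% and 1.32% of astrocyte-like nuclei. These shares were not taken at equal depth. In Ex13del SIK3 the vector level was 90.6 CPM in astrocyte-like and 199.5 in oligodendrocyte-like nuclei, both above the Pvalb level. In WT SIK3 it was 62.3 and 109 CPM (92.2 to 129), the second overlapping the Pvalb interval.

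Sik3 itself, which the counts do not split into viral and mouse transcript, stood at 208 CPM in ad lib sleep, 247 in sleep deprivation, 257 in WT SIK3 and 230.3 in Ex13del SIK3. The ratio of Ex13del to WT was 0.896 (0.782 to 1.03), and that of WT to ad lib sleep 1.23 (1.08 to 1.41). In the WT library Sik3 was at 348 CPM (299 to 403) in the 46 nuclei with a vector UMI and 224 (199.6 to 249.7) in the 141 without. In the Ex13del library the values were 254 (209 to 305) and 221 (195 to 249.99). Sik3 maps to chromosome 9, 46012820 to 46224194, plus strand.

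Ex13del SIK3 against WT SIK3 compares the mutant with the wild-type kinase, each given by virus. Vector levels in Pvalb nuclei were unlike, at 120.2 CPM in WT and 44.7 in Ex13del SIK3. Without the top nucleus of each library they were 94.6 and 36.3 CPM. In excitatory nuclei the order was the other way, 58.6 CPM (56.0 to 61.3) in WT and 68.2 (65.2 to 71.3) in Ex13del SIK3. Mutation, vector level, injection and animals cannot be told apart in this comparison. Few Pvalb genes differed by much. Of 7289 ranked genes 112 were at least 1.5-fold higher (1.54%) and 149 at least 1.5-fold lower (2.04%), 3.58% in either direction, and the median log2 ratio was -0.01 with 49.1% above 0. The highest ratio was that of Mir670hg, a long noncoding host transcript of a microRNA. The median of every list with at least 10 ranked genes lay between -0.12 and 0.06.

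Mir670hg stood at 39.9 CPM in ad lib sleep, 26.1 in sleep deprivation, 27.0 in WT SIK3 and 95.6 in Ex13del SIK3, a ratio of 3.53 (2.57 to 4.93). Only the Ex13del library was high. It was so among nuclei under 10000 UMIs (28.5 in WT, 107 in Ex13del) and among deeper ones (26.3 and 91.6). It was also higher in Ex13del nuclei without a vector UMI (24.8 in WT, 89.6 in Ex13del) as in those with one (33.1 and 111). Its ratio was 2.22 (1.54 to 3.25) in Sst-like, 1.41 (1.11 to 1.81) in Adarb2-rich and 1.51 (1.40 to 1.63) in excitatory nuclei. Mir670hg maps to chromosome 2, 94160636 to 94264918, minus strand.

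Genes of the SIK pathway, the list closest to the expressed kinase, had 10 of 25 ranked members above 0, a median of -0.12 (0.11 after thinning) and none past 1.5-fold. Their summed level went the other way, 3499 CPM in WT and 3628 in Ex13del SIK3, a ratio of 1.037 (1.001 to 1.074). Hdac9, a class IIa histone deacetylase, stood at 246, 169.5, 267 and 358 CPM, a ratio of Ex13del to WT of 1.34 (1.19 to 1.51). It was lowest in sleep deprivation, at 0.690 (0.595 to 0.799) of ad lib sleep, and highest in Ex13del SIK3. Its Ex13del to WT ratio was 1.12 (0.992 to 1.28) in Sst-like and 0.947 (0.923 to 0.971) in excitatory nuclei. Creb1, whose product works with CRTC, stood at 65.0, 68.7, 86.9 and 63.1 CPM, a ratio of 0.726, and its direction turned after thinning.

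Among ion channels Kcnt1, a sodium-activated potassium channel, stood at 101, 102, 90.0 and 137 CPM, a ratio of 1.52 (1.24 to 1.87), with Ex13del the highest. Kcna1, the Kv1.1 channel, stood at 238, 284, 235 and 302 CPM, a ratio of 1.29. Kcnb2 stood at 175, 169, 239 and 159 CPM, a ratio of 0.667 (0.571 to 0.778), where it was WT SIK3 that stood high. The potassium list as a whole had 14 of 29 ranked genes above 0 with a median of -0.03. Heat shock genes were level, 11 of 19 above 0 with a median of 0.02, and so were oxidative phosphorylation genes, 27 of 47 with 0.03.

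The next highest ratios were Gm19951 (1.97), Nkain3 (1.86), Gm48099 (1.83), Dipk1b (1.80) and AC149090.1 (1.77), with Gm43948, Cfl1, Ybx3 and Slc25a13 at 1.65 to 1.72. Among the 10 lowest were Gpc5, Arpp21, Pde4b, Lingo2, Wdr17, Gm20754, Dennd4a, Schip1 and Rabac1. Several of these rested on few nuclei. Arpp21, a cAMP-regulated phosphoprotein of forebrain neurons, stood at 105, 81.4, 104 and 43.5 CPM, a ratio of 0.418 (0.314 to 0.551). Its log2 ratio was -1.24, and -0.52 without the Scrublet-marked nuclei, of which WT SIK3 held 15 and Ex13del 1. Lingo2 stood at 234, 225, 241 and 138 CPM, a ratio of 0.571 (0.485 to 0.671), with a log2 ratio of -0.80 that was -0.28 without those nuclei and -0.16 without nuclei holding an excitatory UMI. For Pde4b the log2 ratio of -1.19 was -0.32 without nuclei holding an excitatory UMI. Gpc5, at 83.2 and 32.5 CPM, took 34% and 42% of its UMIs from 1 nucleus in each library, and its direction turned without nuclei holding an excitatory UMI, as did that of Schip1.

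WT SIK3 against ad lib sleep combines the kinase, the virus and the injection. Of 7344 ranked genes 105 were at least 1.5-fold higher (1.43%) and 101 at least 1.5-fold lower (1.38%), 2.81% in either direction, and 52.2% lay above 0. This comparison shares the ad lib library with that of sleep deprivation, and the WT library with that of Ex13del SIK3, so likeness between them is not read as a result. Fast-spiking markers outside the rule were level, 7 of 14 ranked genes above 0 with a median of 0.00.

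The highest ratio was that of 4930509J09Rik, a noncoding transcript, at 54.3 CPM in ad lib sleep, 34.0 in sleep deprivation, 127 in WT SIK3 and 80.9 in Ex13del SIK3, a ratio of 2.34 (1.87 to 2.94). Ptprk, a receptor tyrosine phosphatase of cell contacts, stood at 60.4, 46.2, 127 and 93.7 CPM, a ratio of 2.10 (1.69 to 2.62). Both genes were higher in the 2 viral libraries than in the 2 others. Snapc3, a subunit of the complex that activates small nuclear RNA genes, stood at 69.2, 77.8, 113 and 104 CPM, a ratio of 1.63. Mycbp, a MYC-binding protein, stood at 73.8, 72.9, 120.2 and 113 CPM, also 1.63. For these genes too both viral libraries lay above both others. In excitatory nuclei the WT to ad lib ratio was 0.990 (0.937 to 1.05) for Snapc3 and 0.949 for Mycbp.

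AC149090.1, annotated on an unplaced scaffold, was the lowest at 386, 439, 124 and 219.9 CPM. Its ratio of WT SIK3 to ad lib sleep was 0.322 (0.278 to 0.373). It was low in every class compared, with 0.362 in Sst-like, 0.293 in Adarb2-rich and 0.428 in excitatory nuclei, and Ex13del lay above WT in each. The next lowest were Ptgds, Sorcs1 and Cacna1e at 0.418, 0.563 and 0.599. In the ad lib library 33% of the Ptgds UMIs came from 1 nucleus, and the log2 ratio was -0.25 without Scrublet-marked nuclei. Endoplasmic reticulum chaperones had 10 of 13 ranked genes above 0 with a median of 0.20, and adhesion genes 25 of 38 with 0.07. Long nuclear noncoding RNAs had 3 of 10 above 0 with a median of -0.15, among them Miat at 48.3, 24.3, 25.5 and 26.3 CPM, where the ad lib library stood alone.

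**Figure D5:**
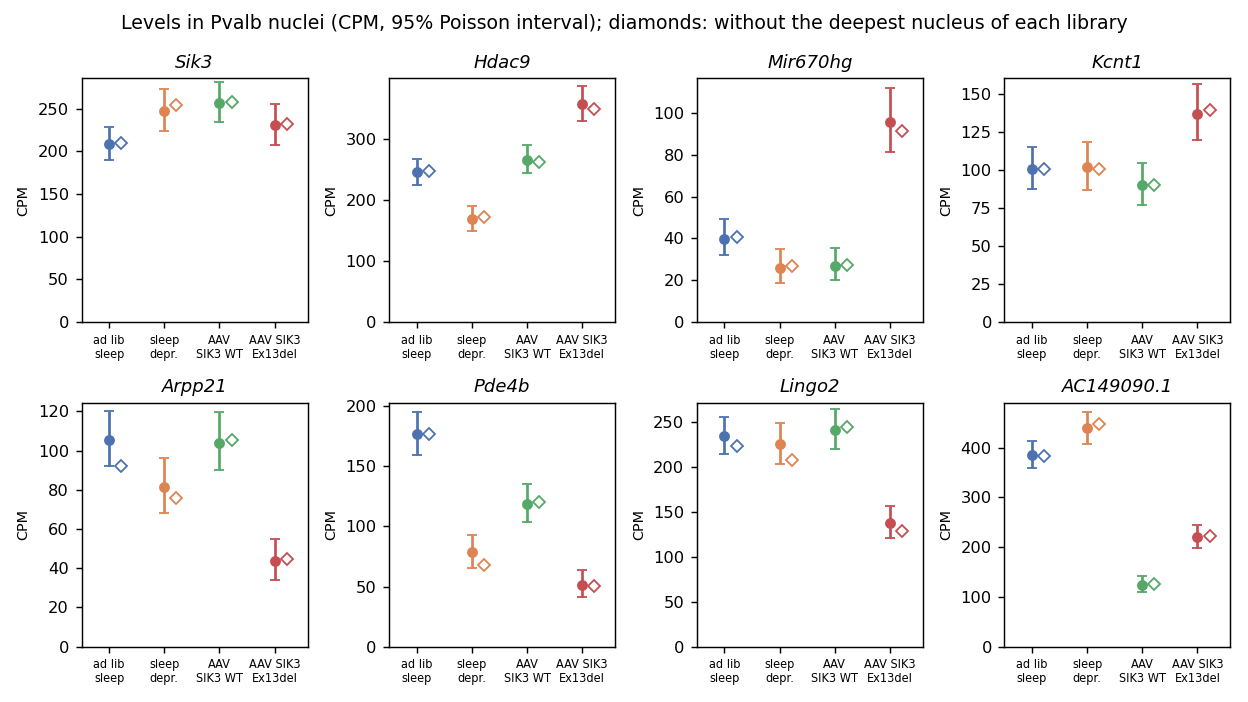
Level of 8 genes in the Pvalb nuclei of each library, in CPM with exact Poisson 95% intervals; diamonds give the level without the deepest nucleus. Mir670hg is high only in Ex13del SIK3 (95.6 CPM), and AC149090.1 is lower in both viral libraries (124 and 219.9 CPM) than in ad lib sleep and sleep deprivation.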

How the data were processed

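Single-nucleus RNA was measured in 4 libraries, 1 per group, with a 3′ droplet kit. The deposited matrices hold UMI counts per gene and barcode, and the submitters' processing notes name Cell Ranger 6.1.2 and the mm10 build; how introns and strand were counted is not given in the sources used here. The vector feature is part of the deposited gene table. Of 32286 features 32235 matched GENCODE vM21, used for positions. The members and the gene lists were chosen with earlier results of these data known.

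UMI counts were summed per library and class and scaled to CPM, without further normalization. Genes averaging 20 CPM or more in the pair of libraries compared, with 50 or more UMIs, were ranked by log2(CPM + 1), and 1.5-fold was a rule of size. With 1 library per group no count model was fitted and no p-value given. Pvalb class depth was 1632492 to 2153034 UMIs per library. Scrublet in scanpy 1.11.5 gave doublet scores, and no threshold of its own was used. The highest-scoring barcodes, at an assumed rate of 0.8% per 1000 barcodes, were marked and left out only as an alternative. Genes named were, per comparison, the 10 highest and 10 lowest ratios among genes averaging 50 CPM with 100 UMIs or more, the most abundant and most different members of each list, the 15 genes standing highest over other GABAergic nuclei, Sik3 and the vector; other list members named were chosen after their values were seen, and a few genes that the rule names are not reported here. Scripts used Python 3.11.15, numpy 2.4.6, scipy 1.17.1, pandas 2.3.3 and edgeR 4.0.16 (TMM factors only), and were tested on simulated data. Alternatives were TMM factors, another pseudocount, other level filters, averages over nuclei, thinning, stricter nuclei, and, added after the data were seen, the recounts without Pvalb in the rule, without excitatory UMIs, within a depth band and without the deepest nucleus.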

Additional observations from a re-analysis of the deposited data

Results flagged for a closer look

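For some of the named genes, another interneuron class lay past 1.5-fold in the opposite direction to Pvalb nuclei. Each class had 1 library per group, so these differences between classes were not tested.

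In sleep deprivation against ad lib sleep, Cntnap5c was 0.643-fold in Adarb2-rich nuclei beside 2.26-fold in Pvalb nuclei. Thsd7a was 0.655-fold in Adarb2-rich nuclei beside 1.86-fold. Pde4b was 1.82-fold in Adarb2-rich nuclei beside 0.444-fold, and its Pvalb value was close to level without Scrublet-marked nuclei.

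In Ex13del against WT SIK3, Gpc5 was 2.03-fold in Sst-like and 2.58-fold in Adarb2-rich nuclei beside 0.390-fold in Pvalb nuclei. The Pvalb value turned (log2 0.99) without nuclei holding excitatory UMIs, and 1 nucleus held 34% of the Gpc5 UMIs in WT and 42% in Ex13del. Arpp21 was 2.12-fold in Sst-like nuclei beside 0.418-fold, a log2 ratio of -1.24 that was -0.52 without Scrublet-marked nuclei. Wdr17 was 1.58-fold in Sst-like and 2.09-fold in Adarb2-rich nuclei beside 0.575-fold. In WT SIK3 against ad lib sleep, 4930509J09Rik was 0.663-fold in Sst-like nuclei beside 2.34-fold in Pvalb nuclei, and Ptprk 0.630-fold beside 2.10-fold. Ptgds was 1.79-fold in Sst-like nuclei beside 0.418-fold, which became a log2 ratio of -0.25 without Scrublet-marked nuclei, and 33% of its ad lib UMIs came from 1 nucleus. Sorcs1 was 1.64-fold in Sst-like nuclei beside 0.563-fold.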

How the results depend on the processing

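No paired analysis was possible because each group has 1 library, and for the same reason no replicate could be left out; the spread between animals was not measured, and counts under about 50 UMIs leave wide intervals. With TMM factors the sleep deprivation counts were 240 higher and 303 lower, and with a rule without Pvalb 216 and 338, against 220 and 333; neither was run for the shares. The numbers of genes past 1.5-fold depended on the filters. Without a floor they were 2472 higher and 3332 lower in sleep deprivation, 2775 and 3770 in Ex13del against WT, and 3015 and 2119 in WT against ad lib sleep. With a floor of 50 CPM they were 69 and 85, 22 and 24, and 11 and 11. With a pseudocount of 5 CPM they were 71 and 94 in Ex13del and 60 and 56 in WT. Without nuclei holding excitatory UMIs (147, 45, 98 and 64 nuclei left) they were 197 and 249 in Ex13del and 207 and 276 in WT. Nuclei of 5000 to 15000 UMIs gave 414, 228 and 181 higher genes in the 3 comparisons. In WT against ad lib sleep, averages over nuclei gave 166 higher genes, and thinning 162 higher and 192 lower. Pvalb shares were 30.3% (ad lib) and 27.2% (sleep deprivation) with stricter nuclei, and 21.5%, 21.3%, 21.6% and 19.7% in ad lib, sleep deprivation, WT and Ex13del after thinning; shares with at least 3 vector UMIs were 6.42% and 3.62%. For sleep deprivation, signs turned without excitatory UMIs for fast-spiking markers (-0.065, and -0.029 in the depth band), glutamate receptors (-0.014), mitochondrial transcripts (-0.21), Hspa5 (-0.15) and Trps1 (0.0095), after thinning for Slc32a1 (-0.39), GABA handling (-0.085) and perineuronal net genes (0.22), without the deepest nuclei for delayed activity genes (-0.14), and without Scrublet-marked nuclei for Cacna2d1 (0.66). For Ex13del they turned after thinning for long noncoding RNAs (-0.016, and -0.015 in the depth band), Rian (-0.016), Creb1 (0.34) and the SIK pathway (0.11), and without excitatory UMIs for Gpc5 (0.99), Nptxr (0.18), Nrg1 (0.048) and Schip1 (0.64, and 0.12 in the depth band). For WT they turned without Scrublet-marked nuclei for Gpc5 (-0.11; -0.68 without excitatory UMIs), without excitatory UMIs for Rgs6 (-0.19) and Rorb (0.38), and after thinning for Sesn1 (-0.14). These are log2 ratios and do not list every turn of a value near 0, and the cause was not tested.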
